A study of Mus musculus with 6 samples.

Results

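The vascular endothelial markers are 10 genes taken by symbol from the 24346 genes measured in the caput epididymis, the head of the duct in which spermatozoa mature: Vegfa, Kdr, Flt1, Tek, Pecam1, Cdh5, Esam, Emcn, Egfl7 and Vwf. The set holds 9 genes known as markers of the cells that line blood vessels, and Vegfa, a ligand that acts on those cells and is made mainly by others. RNA was sequenced from 6 libraries of 8-week-old mice, 3 from Adgrg2 knockouts (KO, genotype Adgrg2-/Y) and 3 from wild-type (WT) animals. Adgrg2, on the X chromosome, encodes a receptor of the adhesion G protein-coupled class, and the comparison asks how caput transcripts differ when it is disrupted. The labels give neither the strain, nor the altered part of Adgrg2, nor whether each library is a different mouse; p-values thus reflect only how far these libraries scatter, which may be partly technical. Values are FPKM, fragment counts scaled by transcript length and library depth, normalized by the authors across libraries. FPKM is a level per length, so levels of different genes can be compared. All 10 genes averaged 1 FPKM or more across libraries, the minimum for testing that 12799 genes met.

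In developing and adult vessels, Vegfa binds the receptor tyrosine kinases Kdr and Flt1 on endothelial cells. Kdr carries most of the growth signal, and Flt1 binds the ligand tightly and limits what reaches Kdr. Tek is the receptor of the angiopoietins, which steady vessels. Pecam1, Cdh5 and Esam are adhesion molecules of the contacts between endothelial cells. Emcn is a sialomucin of capillary and venous endothelium, Egfl7 a secreted protein, and Vwf the clotting factor carrier stored in endothelial cells and platelets. In rodents the first segment of the caput is known for a dense capillary bed.

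RefSeq promoter sequences of GRCm38.p6, the patch release of the mm10 build named for these data, were at hand for 6 of the 10 genes. They are shown because Kdr, Flt1, Tek and Emcn were all near the floor of detection in a single KO library, whereas Egfl7 and Vegfa were not. Each line gives the part of the 250 bases before a start site that lies outside the gene's own GENCODE M21 exons, 5′ to 3′ on the gene's strand, for Egfl7 at 1 of its 3 listed starts and for Vegfa at the start outside its exons. Capitals mark GGAA on either strand, the core bound by ETS factors, a family with many endothelial regulators.
Kdr chr5:75978459-75978705 (minus strand): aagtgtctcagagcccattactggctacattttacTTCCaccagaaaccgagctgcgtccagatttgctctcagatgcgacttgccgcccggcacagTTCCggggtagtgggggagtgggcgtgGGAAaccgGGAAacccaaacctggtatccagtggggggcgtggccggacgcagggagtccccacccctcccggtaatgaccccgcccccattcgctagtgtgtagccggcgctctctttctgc
Flt1 chr5:147726012-147726261 (minus strand): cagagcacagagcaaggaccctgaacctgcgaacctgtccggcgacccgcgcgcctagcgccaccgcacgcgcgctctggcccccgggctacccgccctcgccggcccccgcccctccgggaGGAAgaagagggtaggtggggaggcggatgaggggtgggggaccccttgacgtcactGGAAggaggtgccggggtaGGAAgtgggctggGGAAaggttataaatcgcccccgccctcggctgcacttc
Tek chr4:94739039-94739288 (plus strand): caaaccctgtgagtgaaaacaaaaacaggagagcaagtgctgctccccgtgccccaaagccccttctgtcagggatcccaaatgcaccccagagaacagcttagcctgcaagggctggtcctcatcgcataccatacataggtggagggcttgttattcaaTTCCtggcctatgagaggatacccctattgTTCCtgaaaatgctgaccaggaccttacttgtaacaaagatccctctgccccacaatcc
Emcn chr3:137340828-137341066 (plus strand): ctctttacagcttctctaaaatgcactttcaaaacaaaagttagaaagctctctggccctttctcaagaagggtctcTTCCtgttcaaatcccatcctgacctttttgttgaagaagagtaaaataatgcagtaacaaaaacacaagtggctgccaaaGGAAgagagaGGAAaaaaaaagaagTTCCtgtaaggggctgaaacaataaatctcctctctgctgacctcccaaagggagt
Egfl7 chr2:26583615-26583863 (plus strand): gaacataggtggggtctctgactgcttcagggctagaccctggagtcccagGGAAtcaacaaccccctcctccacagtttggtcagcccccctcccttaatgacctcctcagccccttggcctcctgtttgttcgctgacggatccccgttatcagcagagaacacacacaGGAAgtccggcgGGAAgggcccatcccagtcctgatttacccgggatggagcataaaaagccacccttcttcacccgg
Vegfa chr17:46032378-46032627 (minus strand): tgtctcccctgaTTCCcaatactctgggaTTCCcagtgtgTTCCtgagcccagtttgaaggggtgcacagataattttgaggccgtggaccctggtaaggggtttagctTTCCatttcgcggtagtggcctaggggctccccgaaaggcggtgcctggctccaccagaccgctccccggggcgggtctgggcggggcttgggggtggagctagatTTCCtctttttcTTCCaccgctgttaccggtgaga
The 250 bases held 4 such cores for Kdr, 4 for Flt1, 2 for Tek, 4 for Emcn, 3 for Egfl7 and 6 for Vegfa. At least 1 was present in 93.4% of 32851 promoter windows of that length, at least 4 in 33.4% and at least 6 in 8.69%. The windows of listed starts not shown held 5 and 1 for Egfl7 and 2 for Vegfa. How these 2 genes compare with those near absent thus depends on the start taken. Whether the number of cores bears on the levels was not tested. ACGTG, the core of hypoxia response elements, was in none of the 6 windows shown, on either strand, and in 16.6% of all windows. The window of the other listed Vegfa start, which lies within Vegfa exons, held 1. These are matches of letters only.

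**Figure D1:**
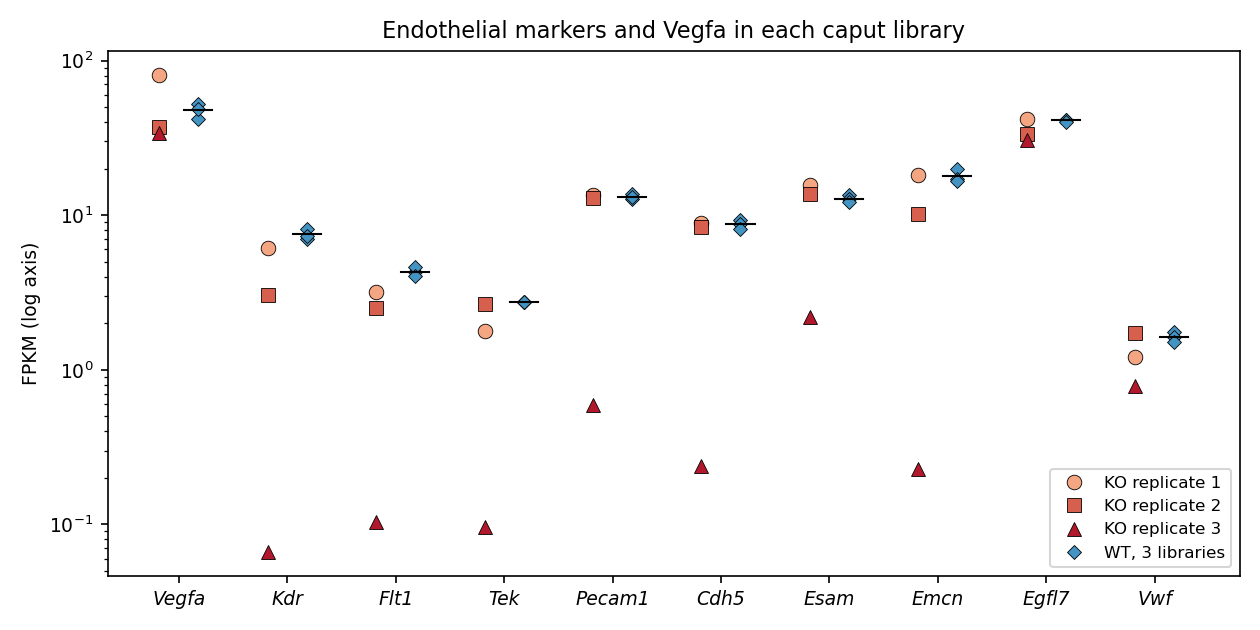
FPKM of each gene in each library on a log axis, with KO libraries left (circle, square and triangle for replicates 1, 2 and 3) and the 3 WT libraries right of them (diamonds, with a line at their mean). KO replicate 3 is lowest of all libraries for each of the 10 genes, by far for Kdr (0.0665 FPKM) and little for Egfl7 (30.8 FPKM).

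The library that stood apart was KO replicate 3. Its mean correlation with the WT libraries across genes was 0.894, against 0.971 and 0.960 for KO replicates 1 and 2 and 0.991 to 0.992 for each WT library with the other two. The median SD of a tested gene was 0.284 on the log2 scale within the KO and 0.0669 within WT. Adgrg2 itself was at 409.6, 323.8 and 327.6 FPKM in the KO libraries, against 808.4, 850.1 and 841.2 FPKM in WT, so each KO library held less (limma, log2 change -1.24 ± 0.16 SE, adjusted p = 0.0579; without KO replicate 3 -1.19 ± 0.12, adjusted p = 0.015). FPKM over the gene says nothing of which exons the remaining RNA holds. Because of KO replicate 3, the values of each library are given for each of the 10 genes, and their fitted changes also without it.

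The 10 genes were at 64.9% to 170.6% of their WT means in KO replicate 1 and at 40.3% to 108.0% in KO replicate 2. In KO replicate 3 they were at 0.886% to 75.1%, most of them near absent. All 10 genes lay below the lowest WT library in KO replicate 3, where 42.4% of all tested genes did so. In KO replicate 1 it was 4 of 10, beside 36.7% of all tested genes, and in KO replicate 2 it was 6 of 10, beside 42.2%. Those last 2 shares are near the background. In KO replicate 3, 6 of the 10 genes were more than 20-fold below the WT mean (Kdr, Emcn, Flt1, Cdh5, Tek and Pecam1), as were 2.48% of all tested genes; the 20-fold mark was chosen after the values were seen. In whole tissue, fewer endothelial cells and less of these RNAs per cell cannot be told apart.

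Vegfa, the ligand (NCBI gene 22339, chr17:46016993-46032377), was the most abundant of the set. It was at 81.1, 37.0 and 33.8 FPKM in KO replicates 1, 2 and 3, against 41.7, 52.2 and 48.7 FPKM in WT. KO replicate 1 lay above every WT library and the other two KO libraries below, so the genotypes overlapped. The means were 50.6 ± 26.4 FPKM in the KO and 47.5 ± 5.38 FPKM in WT (SD, n = 3 each), and the log2 change, here and below on the log2(FPKM + 1) scale, was -0.02 ± 0.34 (SE; limma, adjusted p = 0.980). Its sign turned without KO replicate 2 (0.15) or 3 (0.21 ± 0.33, adjusted p = 0.729), and without KO replicate 1 it was -0.41 ± 0.13 (adjusted p = 0.143). The sign also turned without WT replicate 2 (0.051) or WT replicate 3 (0.0018). In KO replicate 3, where its receptors were near the floor, Vegfa was still at 71.2% of the WT mean.

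Kdr, the main signalling receptor (NCBI gene 16542, chr5:75932827-75979072), was at 6.15, 3.03 and 0.0665 FPKM in the KO libraries, against 7.06, 8.15 and 7.31 FPKM in WT. Every KO library lay below every WT library, at 81.9%, 40.3% and 0.886% of the WT mean. The means were 3.08 ± 3.04 FPKM in the KO and 7.51 ± 0.567 FPKM in WT (SD, n = 3 each). The log2 change of -1.44 ± 0.66 (SE) did not pass the threshold of 0.05 (limma, Benjamini-Hochberg adjusted over 12799 genes, adjusted p = 0.322). The change was -0.66 ± 0.25 without KO replicate 3 (adjusted p = 0.175).

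Flt1, the decoy-like receptor (NCBI gene 14254, chr5:147561604-147726438), followed the same order. It was at 3.19, 2.50 and 0.103 FPKM in the KO libraries, against 4.32, 4.60 and 4.02 FPKM in WT. Again no KO library reached the WT range, at 73.9%, 57.9% and 2.40% of the WT mean. The means were 1.93 ± 1.62 and 4.31 ± 0.292 FPKM in KO and WT (SD, n = 3 each), with a log2 change of -1.07 ± 0.50 (SE; limma, adjusted p = 0.324). Without KO replicate 3 the change was -0.47 ± 0.11 (limma, adjusted p = 0.0781), the lowest adjusted p of any of the 10 genes in any setting tried.

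Tek, the angiopoietin receptor (NCBI gene 21687, chr4:94739086-94874976), was at 1.78, 2.68 and 0.0964 FPKM in the KO libraries, against 2.74, 2.74 and 2.73 FPKM in WT. The WT libraries differed by 0.205% of their mean (coefficient of variation), and KO replicate 2 lay only just under them, at 97.9% of the WT mean. The log2 change was -0.74 ± 0.44 (SE; limma, adjusted p = 0.406), and -0.23 ± 0.14 without KO replicate 3 (adjusted p = 0.367). By the fragment estimate described below, KO replicate 2 held 203 Tek fragments and the WT libraries 235, 203 and 220. Such counts do not resolve so small a gap. Kdr, Flt1 and, by that unresolved margin, Tek, the 3 receptors, were the 3 of 10 genes whose KO libraries all lay below WT. This held for 16.1% of all tested genes. The genotypes did not overlap in either direction for 32.9% of all tested genes.

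The junction genes behaved otherwise in the first 2 KO libraries. Pecam1, an adhesion molecule also present on leukocytes and platelets (NCBI gene 18613, chr11:106654213-106715281), was at 13.5, 12.9 and 0.592 FPKM in the KO libraries, against 12.8, 13.6 and 13.03 FPKM in WT. Cdh5, the cadherin of endothelial junctions (NCBI gene 12562, chr8:104101613-104144504), was at 8.93, 8.398 and 0.240 FPKM, against 9.24, 8.79 and 8.14 FPKM in WT. For both genes KO replicates 1 and 2 fell inside the WT range, and KO replicate 3 stood at 4.51% of the WT mean for Pecam1 and 2.75% for Cdh5. The log2 changes were -1.05 ± 0.85 for Pecam1 and -0.995 ± 0.80 for Cdh5 (SE; limma, adjusted p = 0.509 and 0.506). Without KO replicate 3 they were 0.0047 ± 0.0656 and -0.0081 ± 0.0796 (adjusted p = 0.972 and 0.960), so the value of each rested on that library.

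Esam, an immunoglobulin-type adhesion molecule of endothelial junctions and platelets (NCBI gene 69524, chr9:37528089-37538319), was at 15.6, 13.7 and 2.197 FPKM in the KO libraries, against 13.4, 12.7 and 12.1 FPKM in WT. KO replicates 1 and 2 lay above every WT library and KO replicate 3 below, at 17.3% of the WT mean. Its log2 change was -0.57 ± 0.62 with all libraries (SE; limma, adjusted p = 0.617) and 0.19 ± 0.09 without KO replicate 3 (adjusted p = 0.240). Among the adhesion genes its level in that library was the least reduced.

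Emcn, the sialomucin (NCBI gene 59308, chr3:137341062-137431069), was at 18.2, 10.2 and 0.229 FPKM in the KO libraries, against 19.7, 17.1 and 16.7 FPKM in WT. KO replicate 1 was inside the WT range, KO replicate 2 at 57.1% and KO replicate 3 at 1.28% of the WT mean. The log2 change of -1.55 ± 0.98 (SE; limma) had an adjusted p of 0.427. It was -0.36 ± 0.24 without KO replicate 3 (adjusted p = 0.395). Emcn had a larger change than Kdr on this scale with all libraries, but a smaller one without KO replicate 3, with library weights, with a pseudocount of 0.1 and with normalized counts as the measure.

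Egfl7 and Vwf, the secreted products, kept much more of their level in KO replicate 3. Egfl7 (NCBI gene 353156, chr2:26581083-26592682) was at 42.1, 33.6 and 30.8 FPKM in the KO libraries, against 41.3, 41.4 and 40.3 FPKM in WT, with KO replicate 1 just above the WT range and the other two below it. KO replicate 3 still held 75.1% of the WT mean. Its exons share 64 bases, or 1.79% of their length, with Agpat2 on the opposite strand, and Agpat2 was at 18.8 FPKM in KO replicate 3 against 17.5 to 18.7 FPKM in WT. The kit marks strand, but no source used here says whether counting used it. The Egfl7 exons also share 264 bases, or 7.37% of their length, with Gm20532, a protein-coding gene on the same strand. Strand does not separate it from Egfl7. Gm20532 was not among the genes measured, so its part in the Egfl7 values is not known. Mir126a, the microRNA gene within Egfl7, was listed at 0 in all 6 libraries, which are poly(A) mRNA libraries and do not capture mature microRNAs.

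Vwf (NCBI gene 22371, chr6:125552948-125686679) was at 1.20, 1.72 and 0.784 FPKM in the KO libraries, against 1.75, 1.62 and 1.51 FPKM in WT. It was the least abundant gene of the set, with KO replicate 2 inside the WT range and KO replicate 3 at 48.3% of the WT mean. The log2 changes were -0.21 ± 0.13 for Egfl7 and -0.25 ± 0.19 for Vwf (SE; limma, adjusted p = 0.424 and 0.486). They were -0.12 ± 0.11 and -0.10 ± 0.13 without KO replicate 3 (adjusted p = 0.522 and 0.672), and without KO replicate 1 that of Egfl7 was -0.34 ± 0.09 (adjusted p = 0.105).

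**Figure D2:**
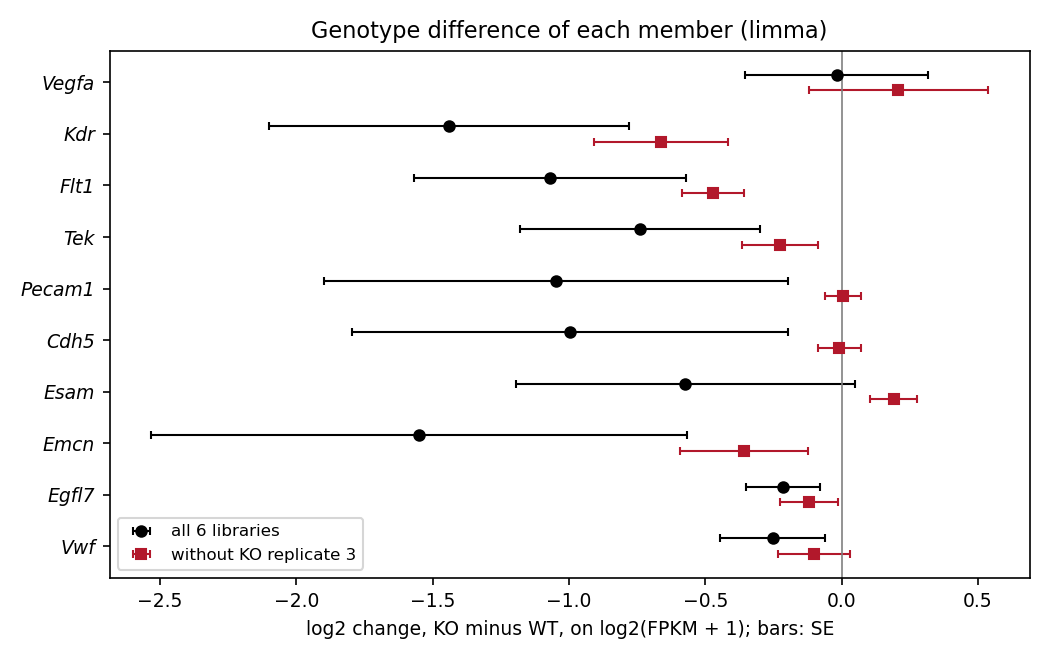
Log2 change (KO minus WT, on log2(FPKM + 1), bars SE) of each gene from limma, with all 6 libraries (black circles) and without KO replicate 3 (red squares). With all libraries every estimate is negative, and without KO replicate 3 those of Pecam1 and Cdh5 lie at 0.0047 and -0.0081.

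Over the genotype comparison as a whole, none of the 10 genes passed the threshold, beside 0.250% of all tested genes (32 of 12799). At an unadjusted p under 0.05 there were 0 of 10 with all libraries, beside 17.5% of all tested genes. The median log2 change of the 10 genes was -0.87 and all 10 were negative, whereas the median over all tested genes was 0.01. Without KO replicate 3 the median was -0.11 with 7 of 10 negative, and 2 genes, Kdr and Flt1, had an unadjusted p under 0.05, beside 25.4% of all tested genes; none passed, beside 4.93%. Without KO replicate 1 none passed, beside 4.23%, and 4 (Kdr, Flt1, Egfl7 and Vegfa, all lower) had an unadjusted p under 0.05, beside 25.8%. Without KO replicate 2 none passed, beside 0.133%, and 1 (Tek) had an unadjusted p under 0.05, beside 22.0%.

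The low values of KO replicate 3 rest on few fragments. Among normalized counts below 300, 98.4% to 98.8% by library lay within 0.05 of a whole multiple of a step shared by all genes. Taking that step as 1 fragment, which could not be checked on reads, gives 4 fragments for Emcn, 5 for Kdr, 6 for Tek, 9 for Flt1, 13 for Cdh5 and 25 for Pecam1 in KO replicate 3. The WT libraries held at least 203 fragments for each of these genes. Depth was not lower to match, at 16498411 fragments in KO replicate 3 and 16849305 to 19723828 in WT. The exact Poisson 95% interval of such counts, which covers counting error only, puts Kdr in KO replicate 3 at 0.288% to 2.07% of the WT mean, Emcn at 0.349% to 3.28% and Pecam1 at 2.92% to 6.65%. These genes were thus far below WT there, by an amount that is imprecise. By contrast Egfl7 had 427 fragments there, Vwf 97 and Esam 52.

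In WT caput the order of levels was Vegfa, Egfl7, Emcn, Pecam1, Esam, Cdh5, Kdr, Flt1, Tek and Vwf, from a mean of 47.5 to 1.63 FPKM. The ranges of 3 libraries overlapped for the neighbours Pecam1 and Esam, and for Cdh5 and Kdr, and for no other neighbours. Vegfa and Egfl7 were barely apart, with the lowest Vegfa library at 41.7 and the highest Egfl7 library at 41.4 FPKM. The WT coefficient of variation was between 0.205% for Tek and 11.3% for Vegfa.

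Ratios to Pecam1 within a library do not depend on how many endothelial cells it held, as long as both RNAs come from those cells alone, which is not certain for Pecam1 or Vegfa. The ratio of Kdr to Pecam1 was 0.456, 0.235 and 0.112 in KO replicates 1, 2 and 3, against 0.552, 0.598 and 0.561 in WT. That of Flt1 was 0.236, 0.194 and 0.174, against 0.338, 0.337 and 0.308 in WT. For both receptors every KO ratio lay below every WT ratio, also in KO replicates 1 and 2, where Pecam1 itself was at the WT level. In KO replicate 3 the ratios rest on an estimated 5 fragments for Kdr, 9 for Flt1 and 25 for Pecam1. The Poisson 95% intervals there overlapped for Flt1 (1.10% to 4.55% of the WT mean) and Pecam1 (2.92% to 6.65%), so the Flt1 ratio is not resolved. That of Kdr (0.288% to 2.07%) did not overlap that of Pecam1. Of 12798 other tested genes 1.23% had every ratio to Pecam1 below WT, a share kept small by the low Pecam1 of KO replicate 3, which raises the ratio of most genes there. The Esam ratio went the other way, at 1.16, 1.07 and 3.71 in the KO libraries, against 1.05, 0.931 and 0.927 in WT, all above WT as for 20.3% of the other genes. Each of these 3 had p = 0.1 (two-sided exact permutation test, n = 3 against 3), the smallest this design allows, and 0.3 after adjustment over the 9 ratios computed.

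The ratios of Cdh5 and Tek to Pecam1 overlapped between genotypes. Cdh5 stood at 0.662, 0.651 and 0.405 times Pecam1 in the KO libraries, against 0.723, 0.645 and 0.624 in WT. Egfl7 and Vwf, within or below the WT range of ratios in the first 2 KO libraries, were far above them in KO replicate 3. There Egfl7 was at 52.0 times Pecam1, against 3.04 to 3.23 times in WT. Vwf was at 1.32 times Pecam1, against 0.116 to 0.137 times in WT.

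**Figure D3:**
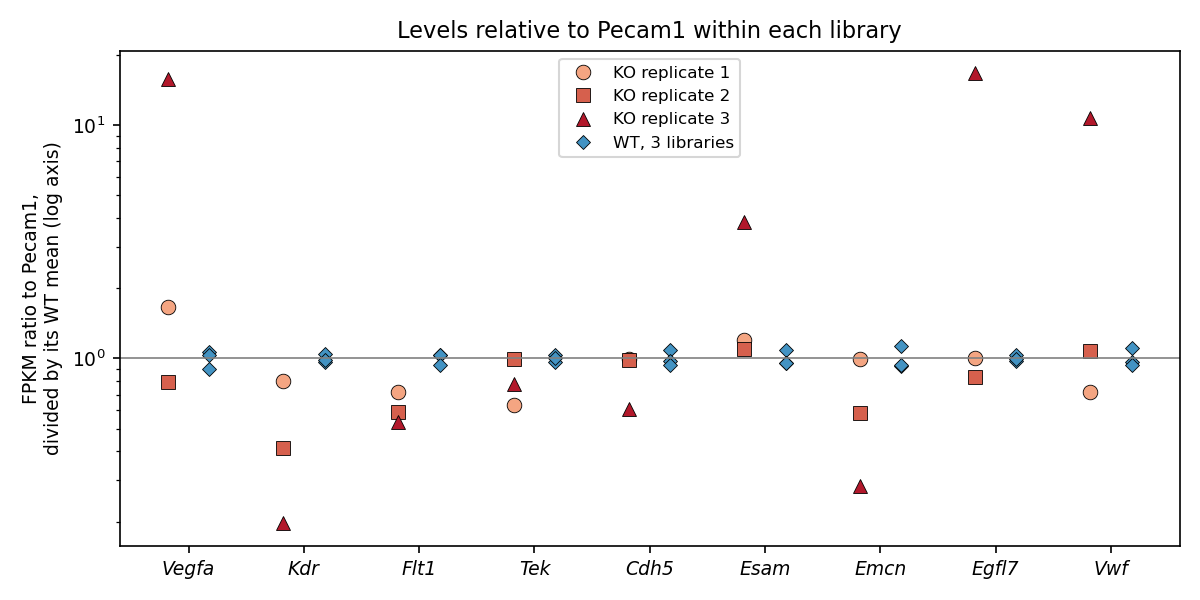
FPKM of each gene divided by that of Pecam1 in the same library, relative to the mean WT ratio, on a log axis, with KO libraries left (circle, square, triangle) and WT libraries right (diamonds). Kdr and Flt1 lie below WT in all 3 KO libraries, and Vegfa, Egfl7 and Vwf lie far above it in KO replicate 3 alone.

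Other endothelial genes gave a similar picture. Of a list of 31 further markers 30 were tested, and none passed the threshold (limma), beside 0.250% of all tested genes. At an unadjusted p under 0.05 there was 1, beside 17.5%. The median log2 change was -0.74 and 27 were negative. In KO replicate 3, 28 of the 30 lay below the lowest WT library, beside 42.4% of all tested genes. There 10 of the 31 were under 5% of their WT mean, beside 2.48% of all tested genes, with Gpihbp1 and Tal1 listed at 0. Tal1, at a WT mean of 0.423 FPKM, is counted in the 10 although it was not tested. Plvap, a protein of fenestrated capillaries, and Cd34, a sialomucin of endothelial and stromal progenitor cells, were the most abundant of the list. Plvap was at 56.9, 13.1 and 11.2 FPKM in the KO libraries, against 34.8, 39.4 and 38.3 FPKM in WT, and Cd34 at 187.1, 38.1 and 11.9 FPKM, against 110.3, 97.7 and 96.7 FPKM in WT. Both were high in KO replicate 1 and low in the other two. Without KO replicate 1, Plvap was lower in the KO (limma, log2 change -1.55 ± 0.11 SE, adjusted p = 0.00853), beside 2.75% of all tested genes lower in that fit; with all libraries its adjusted p was 0.457.

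In KO replicate 2, 4 of the 31 genes were under 50% of their WT mean. They were Plvap, Cd34, Gpihbp1, which holds lipoprotein lipase on capillary endothelium, and Icam2, an adhesion molecule, named after their values were seen. The share of all tested genes under 50% in KO replicate 2 was not computed, so this count has no background to be read against. Gpihbp1 was at 4.15 FPKM in that library against 8.73 to 9.13 FPKM in WT, and Icam2 at 1.502 against 2.89 to 3.41 FPKM. This was the library in which Kdr was at 40.3% and Emcn at 57.1% of the WT mean while Pecam1 and Cdh5 were inside the WT range. Of 7 tested genes of arterial endothelium, 6 lay above the highest WT library there, beside 37.7% of all tested genes. This was not particular to arterial genes, as 3 of 3 venous, 7 of 10 pericyte and 7 of 8 leukocyte genes did so too. Of the further endothelial markers 10 of 30 did, and of the lymphatic genes 0 of 4. Among the arterial genes above WT were Notch1, a receptor of arterial fate that epithelia also express, and Efnb2, a membrane ligand. Notch1 was at 28.2 FPKM against 14.9 to 17.3 FPKM in WT, and Efnb2 at 15.3 against 11.5 to 12.98 FPKM. Notch1 was above WT in all 3 KO libraries, at 21.2, 28.2 and 27.3 FPKM (limma, log2 change 0.63 ± 0.14 SE, adjusted p = 0.145; without KO replicate 1 0.75 ± 0.10, adjusted p = 0.0319).

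Of the 30 further markers, 2 passed without KO replicate 3 (limma), 1 higher, beside 2.59% of all tested genes, and 1 lower, beside 2.34%. Slco2a1, a prostaglandin transporter, was at 18.9, 17.6 and 15.2 FPKM in KO replicates 1, 2 and 3, against 11.7, 11.3 and 12.4 FPKM in WT, so every KO library was higher (log2 change without KO replicate 3 0.59 ± 0.07 SE, adjusted p = 0.0232; with all libraries 0.50 ± 0.11, adjusted p = 0.146). Podxl, a sialomucin of the endothelial surface, was at 10.3, 10.5 and 0.858 FPKM, against 13.9, 14.2 and 13.4 FPKM in WT (without KO replicate 3 -0.38 ± 0.06, adjusted p = 0.0423; with all libraries -1.25 ± 0.71, adjusted p = 0.386).

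Of 20 further genes of the VEGF and angiopoietin pathway, 17 were tested. With all libraries none passed (limma), beside 0.250% of all tested genes, and 2 had an unadjusted p under 0.05, beside 17.5%. The most abundant were Mapkapk2, a kinase downstream of p38, and Plcg1, the phospholipase that Kdr activates. Mapkapk2 was at 75.3, 60.5 and 65.8 FPKM in the KO libraries, against 67.6, 65.3 and 64.8 FPKM in WT, and Plcg1 at 75.5, 45.6 and 23.1 FPKM, against 58.5, 62.9 and 66.6 FPKM in WT. Neither gene is particular to endothelium.

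Without KO replicate 3, 2 of the 17 pathway genes fell, the ligands Vegfd and Angpt4, beside the same 2.34%. Vegfd, a ligand of lymphatic and vascular receptors listed under its older symbol Figf, was at 3.12, 3.81 and 0.242 FPKM in KO replicates 1, 2 and 3, against 7.70, 7.64 and 7.64 FPKM in WT (log2 change without KO replicate 3 -0.96 ± 0.09 SE, limma, adjusted p = 0.0133; with all libraries -1.57 ± 0.51, adjusted p = 0.219). Angpt4, a ligand of Tek, was at 1.76, 2.57 and 0.0526 FPKM, against 4.94, 4.37 and 4.12 FPKM in WT (without KO replicate 3 -0.80 ± 0.14, adjusted p = 0.0454; with all libraries -1.33 ± 0.45, adjusted p = 0.228). For both, every KO library lay below every WT library. Pgf, a ligand of Flt1, went the other way and was at 18.4, 18.9 and 42.2 FPKM, against 15.3, 18.0 and 15.8 FPKM in WT. It was highest in the library where Flt1 was lowest.

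**Figure D4:**
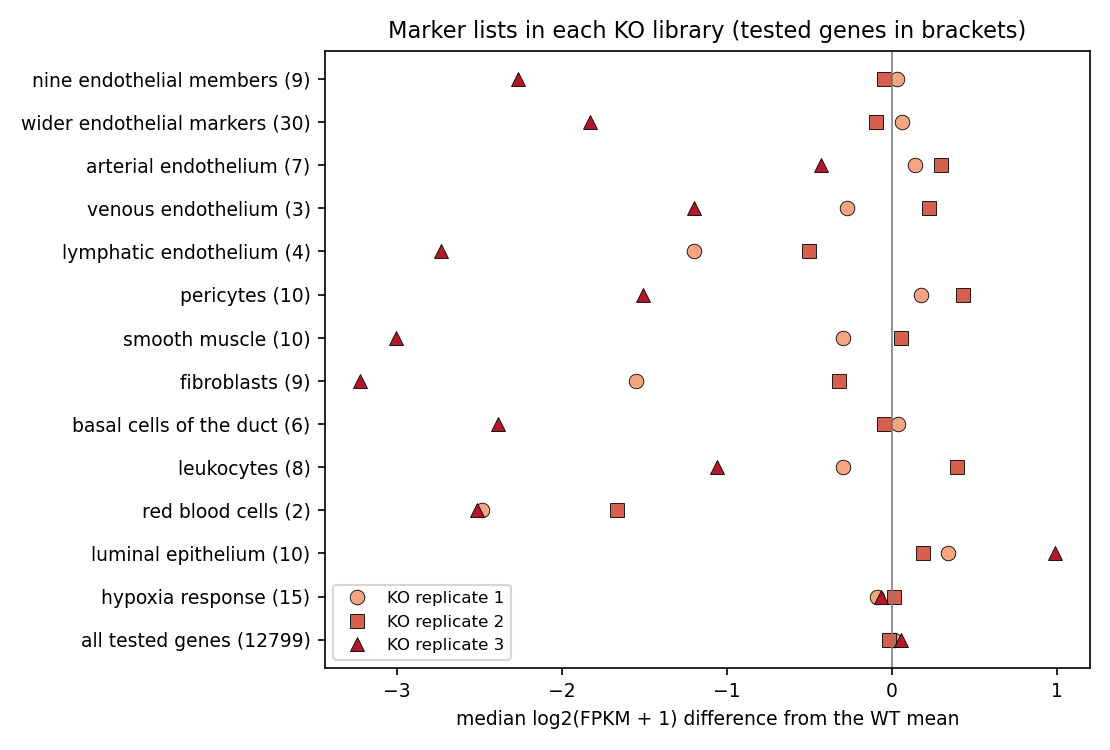
Median difference from the WT mean (log2(FPKM + 1)) of the tested genes of each marker list in KO replicates 1, 2 and 3 (circle, square, triangle), with the number of tested genes in brackets. In KO replicate 3 the 9 endothelial genes (-2.27) lie beside smooth muscle (-3.00), fibroblast (-3.22) and basal cell (-2.39) markers, while luminal epithelial markers are at 0.99.

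Markers of several other cell types moved with the vascular genes in KO replicate 3. The summed FPKM of the 9 endothelial genes was 110.8, 88.8 and 35.1 in KO replicates 1, 2 and 3, against 105.8 to 112.4 in WT, and 30.8 of the 35.1 were Egfl7. For 10 smooth muscle markers, which the duct wall and vessels share, the sum was 2464, 910.6 and 236.6, against 2229 to 2507 in WT, and all 10 lay below WT in KO replicate 3. Most of that sum was Actg2, a smooth muscle actin, at 2018, 305.7 and 175.6 FPKM in the KO libraries, against 1676 to 1911 FPKM in WT (limma without KO replicate 1, log2 change -2.97 ± 0.28 SE, adjusted p = 0.0137; with all libraries -1.93 ± 0.87, adjusted p = 0.313). The other 9 summed to 446.3, 604.9 and 60.95, against 553.4 to 595.9 in WT, so in KO replicate 2 the smooth muscle markers other than Actg2 were not low as a sum. For 10 pericyte markers it was 74.7, 97.4 and 13.1, against 73.3 to 78.1 in WT, with 9 of 10 below. For 9 fibroblast markers it was 192.1, 427.3 and 38.0, against 485.7 to 556.1 in WT, with 9 of 9 below. Pdgfra, a fibroblast receptor, was at 46.9, 41.4 and 8.67 FPKM, against 69.3 to 71.8 FPKM in WT, and passed without KO replicate 3 (limma, log2 change -0.66 ± 0.08 SE, adjusted p = 0.0206; with all libraries -1.40 ± 0.60, adjusted p = 0.297). For 6 basal cell markers it was 201.7, 249.5 and 39.1, against 198.4 to 203.2 in WT, with 6 of 6 below. In KO replicate 3, 42.4% of all tested genes lay below the lowest WT library, the share to set beside these counts. No marker of the smooth muscle, pericyte, fibroblast and basal cell lists was at 0.

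Luminal epithelial markers ran the other way, with a sum of 1737, 1656 and 2965 FPKM over 10 genes in the KO libraries, against 1320 to 1404 in WT. The sum over all tested genes was also highest in KO replicate 3. It was 731137, 643484 and 930557 FPKM in the KO libraries, against 689990 to 712800 FPKM in WT. Krt19, an epithelial keratin, was at 213.6, 252.6 and 454.9 FPKM, against 138.9 to 153.98 FPKM in WT, and passed without KO replicate 3 (limma, log2 change 0.67 ± 0.10 SE, adjusted p = 0.0369; with all libraries 0.99 ± 0.29, adjusted p = 0.193). For 10 leukocyte markers the sum was 360.6, 393.9 and 282.8, against 284.0 to 303.7 in WT. In KO replicate 3, 7 of 8 tested leukocyte genes lay below WT, beside 42.4% of all tested genes. Cd79a was at 0 there and in a WT library. Cd52, a lymphocyte surface protein that epididymal epithelium also makes, was 207.2 of that 282.8. The tested gene above WT in KO replicate 3 was Cd68, a macrophage protein, at 19.0, 45.9 and 62.6 FPKM in the KO libraries, against 17.4 to 21.4 FPKM in WT (limma without KO replicate 1, log2 change 1.44 ± 0.17 SE, adjusted p = 0.0249; with all libraries 0.96 ± 0.41, adjusted p = 0.2996). Cd3e, a listed gene below the minimum for testing, was also above WT there, at 1.58 against 0.440 to 0.770 FPKM. Platelet markers, which matter for Vwf, Pecam1 and Esam, summed to 8.83, 12.04 and 11.99 over 6 genes, against 10.2 to 11.8 in WT. Within that sum Itga2b, a platelet integrin, was high in KO replicate 3 (11.5 against 4.09 to 4.72 FPKM in WT) and Pf4, a platelet chemokine, low (0.181 against 5.07 to 7.07 FPKM). Ppbp was at 0 in that library, Gp6 in all libraries and Gp9 in all but a single WT library. The part of these cell types in the low vascular genes of KO replicate 3 was not tested.

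Lymphatic markers were below WT in all 3 KO libraries for all 4 tested genes, a pattern of 16.1% of all tested genes. Their sum was 20.1, 29.3 and 1.80 FPKM over 7 genes in the KO libraries, against 60.8 to 67.1 in WT, and Ccl21a, Lyve1 and Mmrn1 were listed at 0 in KO replicate 3. Most of the sum was Pdpn, a glycoprotein that fibroblasts and epithelia also make, at 14.2, 16.7 and 1.71 FPKM against 45.3, 43.2 and 44.5 FPKM in WT (limma, log2 change -2.33 ± 0.70 SE, adjusted p = 0.201; without KO replicate 3 -1.46 ± 0.09, adjusted p = 0.00493). None of the 4 passed with all libraries, and 3 had an unadjusted p under 0.05, beside 17.5% of all tested genes.

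Haemoglobin RNA, a sign of blood in the tissue, was also low in every KO library. Hba-a1 was at 4.88, 17.3 and 4.67 FPKM in the KO libraries, against 77.2, 80.6 and 68.5 FPKM in WT (limma, log2 change -3.17 ± 0.46 SE, adjusted p = 0.0772; without KO replicate 3 -2.88 ± 0.47, adjusted p = 0.0412). Leaving out KO replicate 2 gave -3.72 ± 0.11 (limma, adjusted p = 0.00449). Its near-identical copy Hba-a2 was listed at 0.0241 to 0.0244 FPKM in every library, and no source used here says how reads were shared between the copies. KO replicate 1 thus had WT levels of Pecam1 and Cdh5 with little haemoglobin RNA.

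Genes of the hypoxia response, a known inducer of Vegfa, were mixed. Of 15 tested, none passed with all libraries (limma), beside 0.250% of all tested genes, and 3 had an unadjusted p under 0.05, beside 17.5%. Without KO replicate 3 none passed, beside 4.93%, and 5 had an unadjusted p under 0.05, beside 25.4%. Their median difference from WT was -0.09, 0.01 and -0.06 in KO replicates 1, 2 and 3. The most abundant were Ldha, a glycolytic enzyme, at 136.4, 108.5 and 171.9 FPKM in the KO libraries against 103.2, 100.3 and 101.7 FPKM in WT, and Pgk1, another, at 94.2, 65.2 and 102.4 FPKM against 92.3, 90.4 and 88.95 FPKM in WT. Ldha was above every WT library in all 3 KO libraries, and Pgk1 in KO replicates 1 and 3. Without KO replicate 1, 2 of the 15 genes fell, beside 2.75% of all tested genes. Egln3, an oxygen-sensing hydroxylase, was at 8.89, 4.21 and 1.81 FPKM in the KO libraries, against 10.9 to 11.5 FPKM in WT (limma without KO replicate 1, log2 change -1.67 ± 0.28 SE, adjusted p = 0.0479; with all libraries -1.21 ± 0.43, adjusted p = 0.242). Vldlr, a lipoprotein receptor, was at 9.66, 2.63 and 0.572 FPKM, against 11.7 to 13.6 FPKM in WT (without KO replicate 1 -2.48 ± 0.37, adjusted p = 0.0392; with all libraries -1.76 ± 0.65, adjusted p = 0.251). Every KO library lay below every WT library for both.

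The mean profile of the 9 endothelial genes, as the difference from the WT mean in log2(FPKM + 1), was -0.10, -0.29 and -2.24 in KO replicates 1, 2 and 3. Among 9079 other genes outside every list used here with a mean of at least 5 FPKM, the 8 with the smallest root mean square distance from it over the 6 libraries were Cbl, Lmcd1, Tns1, Tnnt2, Ptgfrn, Slc9a3r2, Lnpep and Afap1l1, at distances of 0.0515 to 0.12. Within the set the nearest was Flt1 at 0.164 and the farthest of the 9 was Egfl7 at 0.752. Cbl was at 8.74, 7.91 and 1.29 FPKM in the KO libraries, against 9.13, 9.59 and 9.26 FPKM in WT. Because KO replicate 3 dominates the profile, nearness to it mostly means a low value in that library.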

How the data were processed

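RNA of the caput epididymis of Adgrg2 KO and WT mice (3 libraries each) was measured by mRNA sequencing with a stranded Illumina kit, per the labels' protocols. The submitters' processing notes name TopHat2 2.1.1, Cufflinks 2.2.1 and build mm10. No source used here names the gene annotation, strand setting or normalization method. The deposited FPKM, per the file headers, are normalized values, and so is the deposited normalized count, a signal that is not a raw count. Normalized counts summed to 18136864 to 21455984 per library.

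Genes averaging 1 FPKM or more were tested with limma 3.58.1 in R 4.3.3 (empirical Bayes with a mean-variance trend, two-sided, Benjamini-Hochberg over 12799 genes, threshold 0.05) on log2(FPKM + 1), with a term for genotype alone. This scale understates changes of low genes. The test was checked on simulated data. The simulation gave both genotypes the same spread and no outlying library, unlike these data, so it does not show how the test performs here. Tables and figures were made with Python 3.11.15, pandas 2.3.3 and matplotlib 3.10.9. The text names the 10 members, Adgrg2, for each list its called genes (at most 4) or else its 2 most abundant, limited here to lists a result turns on, and the 8 nearest genes; further genes, some of which passed without a KO library, were chosen after their values were seen. The members and the 14 lists were chosen with earlier results of these data known. Coordinates and promoters are RefSeq's for GRCm38.p6, matched by NCBI gene ID. Alternatives were another pseudocount, other filters, rescalings, moderation and library weights, a replicate block, normalized counts as the measure and each library left out. The planned edgeR test was not run, since the values are not counts and whole reads could not be recovered for the lowest ones.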

Additional observations from a re-analysis of the deposited data

How the results depend on the processing

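None of the 10 vascular genes passed the threshold in any of the 15 alternatives run. The members kept their direction and their side of the threshold in 139 of 147 comparisons with the value reported, and the other named genes in 407, with 15 more passing only under the alternative. Reversals, as log2 changes, were Vegfa (0.23), Esam (0.061), the pericyte marker Mcam (0.14) and the basal cell markers Krt5 (0.14) and Krt14 (0.37) with library weights and Mapkapk2 (-0.043) with quantile normalization. With each library left out in turn the reversing genes spanned -0.41 to 0.21 for Vegfa, -1.59 to 0.0047 for Pecam1, -0.999 to 0.19 for Esam, -0.063 to 0.093 for Mapkapk2, -0.037 to 0.24 for Efnb2, -0.48 to 0.0073 for the venous marker Nr2f2, -1.19 to 0.35 for Mcam, -1.18 to 0.37 for Krt5, -0.995 to 0.60 for Krt14 and -0.21 to 0.12 for Pgk1. The library weights were 0.605, 0.451 and 0.0748 for KO replicates 1, 2 and 3 and 3.19 to 4.70 for WT.

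The count over all genes was 32. It was 16 with a pseudocount of 0.1, 101 with no filter on low values, 17 with a minimum mean of 5 FPKM, 106 with quantile normalization, 302 with library weights and 6 with normalized counts as the measure. It was 2 to 631 with a library left out, at 541, 17 and 631 for KO replicates 1, 2 and 3 and 2 for each WT replicate; the causes were not tested. Among further endothelial markers 0 passed, against 1 with library weights and 0 to 2 with a library left out. Pathway genes gave the same counts, 0, 1 and 0 to 2.

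Same-numbered libraries of the genotypes share only a number: their deviations correlated at -0.113, 0.0318 and 0.0797. With the replicate block 1 gene passed over all genes and 0 of the 10. The planned edgeR test was not run. Flt1, Tek and Vwf were not tested with a minimum mean of 5 FPKM. With 3 libraries a group and the wide KO spread, a missed threshold does not show equal levels.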
